A study of Mus musculus with 6 samples.

Results

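The core circadian clock loop is a set of transcription factors and repressors that feed back on their own genes and turn over in a daily rhythm. It was followed here through 10 genes chosen by name: Arntl (Bmal1), Clock, Npas2, Cry1, Cry2, Per1, Per2, Per3, Nr1d1 and Nr1d2. A gene was taken as measured where the platform annotation gave a probe set that gene's symbol and no other. This held for 9 of the 10 genes, with 1 probe set each, out of 19938 genes and 35512 probe sets in all. Npas2, which encodes a partner of the Arntl protein that can stand in for CLOCK, was not analysed here. RNA came from the livers of 6 female C57BL/6 mice aged 3 months that had been without food for 6 h, with 1 array per mouse. Of these, 3 mice were homozygous for the knock-in allele Lmna G609G (LmnaG609G/G609G; replicates 1, 3 and 5), a germline allele that causes mis-splicing of the lamin A transcript and models Hutchinson-Gilford progeria, and 3 were wild-type (Lmna+/+; replicates 2, 4 and 6). The sources used here do not give the time of day at which the mice were killed, and each mouse was measured once, so the values are levels at 1 moment and hold no phase or amplitude. Homozygous mice of this line are known to lose weight and to die young.

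In the liver clock, the ARNTL and CLOCK proteins bind E-box elements as a pair and switch on the Per, Cry and Nr1d genes. The PER and CRY proteins then block that pair, and the NR1D proteins (REV-ERB alpha and beta) repress Arntl, Clock, Npas2, Cry1 and Nfil3 through ROR elements, at which the ROR proteins activate. Transcripts of Arntl and of Nr1d1 therefore peak at opposite times of day in mouse liver, and the loop passes its rhythm to metabolic genes in part through the D-box factors DBP, TEF and HLF and their repressor NFIL3. Feeding, glucocorticoids, cAMP signals and temperature can also act on individual members, above all on Per1 and Per2.

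The promoter windows of 5 members are shown because 3 of these genes rose, 1 fell and 1 was not called. The windows also hold matches to the letters of several clock elements. Each window runs from 250 bases before a RefSeq transcript start to 50 bases after it, on the GRCm38.p6 assembly, 5′ to 3′ on the strand of the gene. Capitals mark exact matches to the E-box (CACGTG), the E′-box (CACGTT), the ROR element core (AGGTCA), the D-box (TTATGTAA or TTACGTAA) or the cAMP response element (TGACGTCA). Both strands were searched, so AACGTG is an E′-box, TGACCT a ROR element core and TTACATAA a D-box read on the other strand. No 2 marked matches overlap. Where a gene had several starts, as Arntl and Per1 did, the window with a match is shown.
Arntl, chr7:113207261-113207560, plus strand: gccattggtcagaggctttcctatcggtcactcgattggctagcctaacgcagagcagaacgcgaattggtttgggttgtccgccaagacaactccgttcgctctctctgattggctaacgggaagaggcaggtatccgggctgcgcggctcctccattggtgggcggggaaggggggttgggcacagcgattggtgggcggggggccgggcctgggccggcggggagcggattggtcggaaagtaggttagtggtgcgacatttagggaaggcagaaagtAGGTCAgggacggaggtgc
Cry1, chr10:85185005-85185304, minus strand: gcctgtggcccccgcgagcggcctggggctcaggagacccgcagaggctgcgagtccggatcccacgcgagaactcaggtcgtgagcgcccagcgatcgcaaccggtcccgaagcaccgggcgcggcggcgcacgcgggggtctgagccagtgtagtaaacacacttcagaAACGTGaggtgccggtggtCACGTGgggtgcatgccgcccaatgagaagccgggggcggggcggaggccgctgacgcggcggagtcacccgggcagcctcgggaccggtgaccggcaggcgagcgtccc
Per1, chr11:69098699-69098998, plus strand: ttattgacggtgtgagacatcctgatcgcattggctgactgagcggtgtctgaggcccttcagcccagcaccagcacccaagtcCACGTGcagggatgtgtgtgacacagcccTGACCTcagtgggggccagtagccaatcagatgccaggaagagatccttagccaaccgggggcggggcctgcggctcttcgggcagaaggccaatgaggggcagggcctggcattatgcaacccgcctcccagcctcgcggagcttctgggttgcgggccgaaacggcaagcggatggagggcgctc
Per3, chr4:151044616-151044915, minus strand: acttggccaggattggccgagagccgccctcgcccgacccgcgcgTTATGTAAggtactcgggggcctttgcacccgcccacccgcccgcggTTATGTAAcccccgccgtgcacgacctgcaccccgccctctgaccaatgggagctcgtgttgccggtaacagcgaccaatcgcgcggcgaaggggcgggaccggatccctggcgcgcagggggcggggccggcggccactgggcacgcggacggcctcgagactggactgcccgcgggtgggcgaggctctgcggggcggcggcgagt
Nr1d1, chr11:98775328-98775627, minus strand: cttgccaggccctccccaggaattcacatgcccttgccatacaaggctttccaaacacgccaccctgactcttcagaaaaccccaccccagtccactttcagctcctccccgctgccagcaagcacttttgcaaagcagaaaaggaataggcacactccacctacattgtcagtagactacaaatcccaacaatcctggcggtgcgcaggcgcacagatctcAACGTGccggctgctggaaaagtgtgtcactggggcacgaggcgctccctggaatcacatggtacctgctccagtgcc

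In these windows Arntl held 1 ROR element core, which begins 31 bases after the start. Cry1 held an E′-box 79 bases and an E-box 60 bases before the start. Per1 held an E-box 166 bases and a ROR element core 137 bases before the start, and Nr1d1 held an E′-box 28 bases before it. Per3 held 2 D-boxes, at 205 and 158 bases before the start. The tables held 13 windows for 9 of the 10 genes (all but Per2). An E-box was found in windows of 2 of these genes, an E′-box in 3, a ROR element core in 4 (Arntl, Clock, Per1 and Nr1d2), a D-box in 1 and the cAMP response element in 0. Counted by window, these matches lay in 2, 3, 4, 1 and 0 of the 13 windows. Over all 32841 promoter windows of the same length, also counted by window, 7.15% held the E-box, 4.69% the E′-box, 16.3% the ROR element core, 1.06% the D-box and 1.79% the cAMP response element. A gene with several windows has more chances to hold a match. A match of letters is a description of the window and not a measured binding site.

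The comparison asked how the clock genes differed between knock-in and wild-type liver. In knock-in liver, the activator genes Arntl and Clock, both cryptochrome genes and Per1 were higher, Per3 and Per2 were lower, and the repressor genes Nr1d1 and Nr1d2 did not pass the test. The changes ran from about 9.59-fold higher (Arntl, a size that depends on the pseudocount because its wild-type signal was dim) to 4.89-fold lower (Per3). Intensities were compared as log2(value + 16) with limma, and a gene was called where its p, adjusted by Benjamini-Hochberg over 26634 probe sets, was below 0.05. Of the 9 measured members, 5 were called higher and 2 lower, against 14.9% and 10.9% of all tested probe sets, and 25.9% in either direction. Many probe sets have no listed gene, and on probe sets with exactly 1 gene the calls were near even (2637 higher, 2646 lower). The ranges of the genotypes did not overlap for those 7 members, against 41.1% of all tested probe sets. The members' median log2 change was 0.67 and the median size of change 1.15, beside 0.03 and 0.18 over all tested probe sets. The members were chosen with earlier results of these data known, so these shares and sizes describe them and test nothing. All 9 members passed the filter on low values, and each of their 54 values lay above it (69 to 2574 intensity units, with the filter at 38.4). Fold changes are on the log2(value + 16) scale, errors of intensities are SD and errors of log2 changes are SE, with n = 3 mice per genotype.

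**Figure D1:**
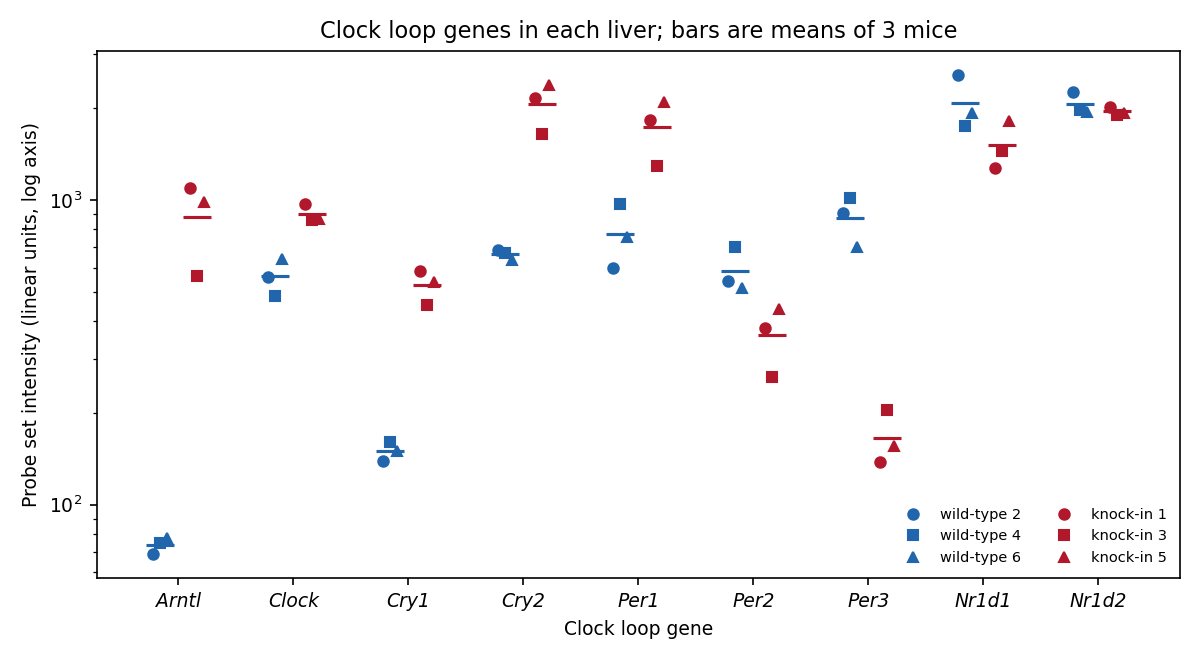
Probe set intensity (log axis) of the 9 measured clock loop genes in each of 3 wild-type (blue) and 3 knock-in (red) livers; symbols tell the mice apart and bars are means. The genotypes are separate for Arntl, Clock, Cry1, Cry2, Per1, Per2 and Per3, and they overlap for Nr1d1 and Nr1d2. Heights of different genes are not comparable because their probes differ.

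Among the activators, Arntl, the obligate partner of CLOCK, read 1092, 564 and 981 in knock-in mice 1, 3 and 5 and 69, 75 and 78 in wild-type mice 2, 4 and 6. Every knock-in value was above every wild-type value, and knock-in mouse 3 was the lowest of its group. The log2 change was 3.26 ± 0.23 (879 ± 278 against 74.0 ± 4.58; limma adjusted p = 0.000296). The wild-type readings lay under the array medians (97.0 to 104), and whether they were above background was not analysed here, so the size of this change is approximate: it was 3.50 with a pseudocount of 1 and 2.72 with a pseudocount of 64. The spread between mice on the log2 scale was 0.50 (SD) in the knock-in and 0.07 in the wild-type group. Clock, which encodes the histone acetyltransferase partner of ARNTL, read 967, 859 and 865 in knock-in and 560, 484 and 642 in wild-type mice. Its values were separate too, but the change was small, 1.59-fold (log2 0.67 ± 0.12; limma adjusted p = 0.00809). Within each array the log2 value of Arntl moved by 2.59 more than that of Clock (2.08 to 2.85 in the knock-in mice, -0.13 to 0.22 in the wild-type mice, both relative to the wild-type mean).

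The cryptochrome genes, whose products are the strongest repressors of the ARNTL and CLOCK pair, both rose. Cry1 read 586, 453 and 538 in knock-in and 139, 161 and 150 in wild-type mice. This was a 3.25-fold rise with a wide gap between the groups (log2 1.70 ± 0.12; limma adjusted p = 0.000296). Cry2 read 2151, 1645 and 2378 in knock-in and 685, 668 and 636 in wild-type mice. It rose 3.02-fold, again without overlap, and its wild-type values were close together (log2 SD 0.05) while its knock-in values were more spread (0.27). The log2 change was 1.59 ± 0.14 (limma adjusted p = 0.000638). Within arrays, the change of Cry1 exceeded that of Cry2 by 0.11, with knock-in mice at -0.08 to 0.21 and wild-type mice at -0.14 to 0.08, so the groups overlapped (exact two-sided permutation test p = 0.50).

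The period genes, which encode the partners of the cryptochromes in the repressor complex, moved in different directions. Per1, which is also induced directly by glucocorticoid and cAMP signals, read 1829, 1294 and 2098 in knock-in and 600, 973 and 753 in wild-type mice. All knock-in values were higher, and the rise was 2.22-fold (log2 1.15 ± 0.22; limma adjusted p = 0.00930). Per2 read 379, 263 and 439 in knock-in and 540, 698 and 514 in wild-type mice. It was lower without overlap, but by only 1.61-fold and close to the threshold (log2 -0.69 ± 0.20; limma adjusted p = 0.0403). Leaving out any mouse except knock-in mouse 5 ended this call: adjusted p was 0.0894 without knock-in mouse 1, 0.0557 without knock-in mouse 3, and 0.0825, 0.118 and 0.0639 without wild-type mice 2, 4 and 6. It was also lost with no filter on low values (adjusted p = 0.0637). Without Per2, the members called lower number 1.

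Per3, the period gene that is dispensable for the loop itself, read 138, 204 and 156 in knock-in and 907, 1012 and 700 in wild-type mice. The groups were far apart, with a fall of 4.89-fold (log2 -2.29 ± 0.18; limma adjusted p = 0.000415), the 90th lowest change among the tested probe sets. Wild-type mouse 4 had the highest wild-type reading of all 3 period genes. Within each array, the log2 value of Per1 moved by 1.84 more than that of Per2 and by 3.44 more than that of Per3. For Per1 against Per2 the 3 knock-in mice lay between 1.83 and 1.85 and the wild-type mice between -0.24 and 0.15. For Per2 against Per3 the difference was 1.60, with knock-in mice at 0.91 to 1.97 and wild-type mice at -0.17 to 0.13.

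The within-array differences were compared for 6 pairs of members by exact two-sided permutation of the mice. For Arntl against Clock and for the 3 pairs of period genes p was 0.10 (0.15 adjusted over the 6 pairs), the smallest p that 3 mice against 3 can give, so this test cannot pass 0.05. In each of these 4 pairs the 3 knock-in mice were separate from the 3 wild-type mice.

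The REV-ERB genes, the repressors that close the second loop on Arntl, were not called. Nr1d1 read 1268, 1449 and 1809 in knock-in and 2574, 1743 and 1932 in wild-type mice. Knock-in mouse 5 lay above wild-type mouse 4, so the groups overlapped. The log2 change was -0.46 ± 0.18 (unadjusted p = 0.0370, limma adjusted p = 0.106; 95% interval -0.88 to -0.04), and it was called with array weights (adjusted p = 0.0480). Nr1d1 overlaps the thyroid hormone receptor gene Thra on the opposite strand in the RefSeq annotation, and whether its probes lie in that overlap was not analysed here. Nr1d2 read 2024, 1898 and 1930 in knock-in and 2260, 1977 and 1937 in wild-type mice. These values lay close together, with a log2 change of -0.07 ± 0.09 (95% interval -0.29 to 0.14; limma adjusted p = 0.630), an interval that holds no change as large as that of any called member. Between the REV-ERB genes the change differed by -0.38 within arrays (exact two-sided permutation test p = 0.20, 0.24 adjusted over the 6 pairs), and a p above the threshold does not show that they moved alike.

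**Figure D2:**
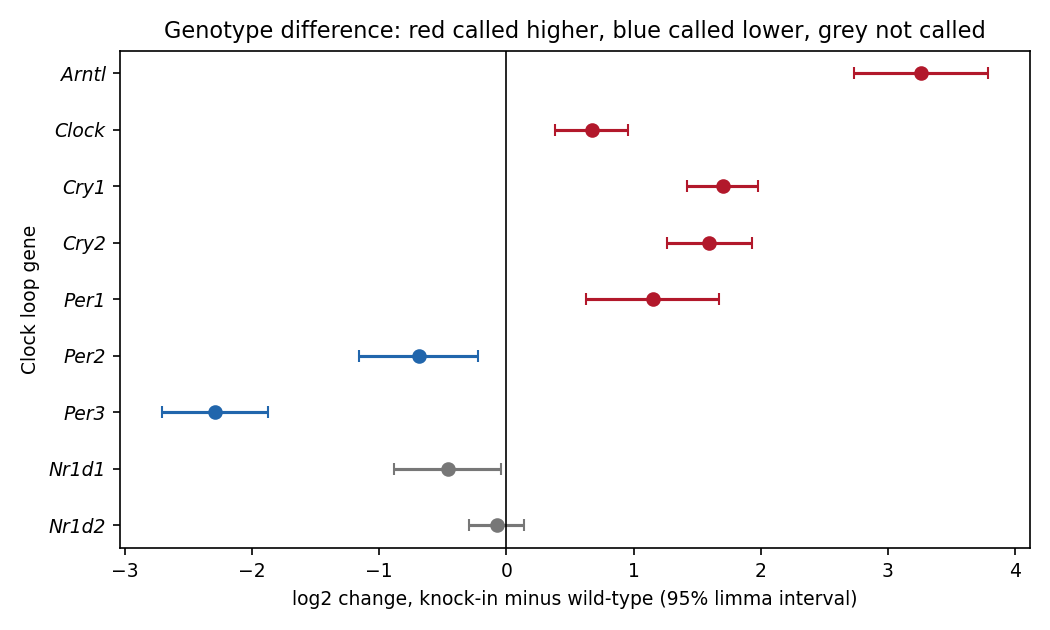
log2 change of each measured clock loop gene, knock-in minus wild-type, with its 95% limma interval (n = 3 mice per genotype); red points were called higher, blue points lower, grey points were not called. Arntl is at 3.26 and Per3 at -2.29, while Nr1d2 lies at -0.07 with an interval across 0.

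The members also differed in how much mice of the same genotype varied. The residual SD on the log2 scale pools both genotypes (for Arntl, SD 0.50 in knock-in and 0.07 in wild-type mice). Its median over all tested probe sets was 0.13. It was 0.36 for Arntl, 0.35 for Per1, 0.30 for Per2 and 0.27 for Per3 and Nr1d1. It was 0.15 for Cry1 and 0.16 for Clock, and 0.09 for Nr1d2, the lowest of the members. Among the knock-in mice, mouse 3 was nearest to the wild-type mean for 6 of the 7 called members, the exception being Per2, where it was farthest. The same mouse was nearest for 65.2% of all 6888 called probe sets.

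**Figure D3:**
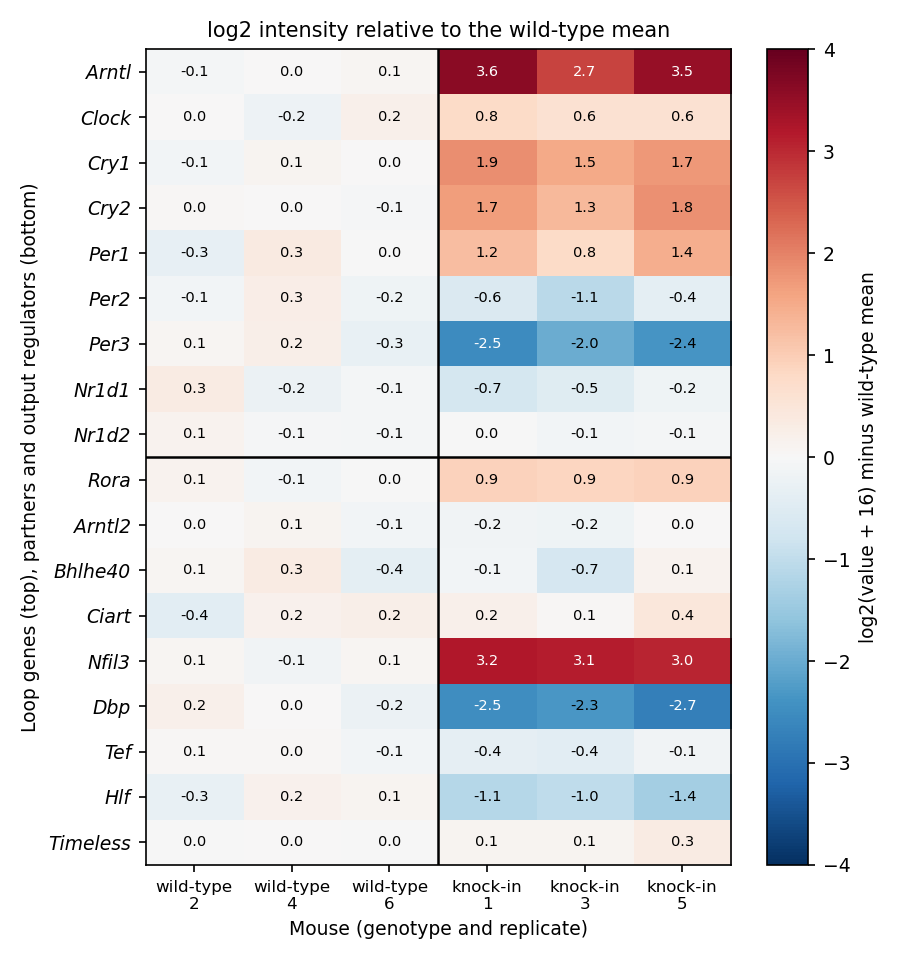
log2(value + 16) of each mouse minus the wild-type mean, for the 9 measured clock loop genes (above the line) and 9 loop partners and output regulators (below it); columns are mice, and red is higher, blue lower. The knock-in columns are red for Arntl, Cry1, Cry2, Per1, Rora and Nfil3 and blue for Per3, Dbp and Hlf, with the palest column of Arntl in knock-in mouse 3.

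Around the loop, the ROR activators, the D-box factors and other partners were read from a list of 12 genes. Of these, 9 were tested, 2 rose, 2 fell and 5 did not pass (median log2 change -0.10). The share called was 44.4%, against 25.9% of all tested probe sets. Nfil3, the D-box repressor whose gene is itself under ROR and REV-ERB control, read 2035, 1919 and 1811 in knock-in and 216, 184 and 216 in wild-type mice. It rose 8.77-fold (log2 3.13 ± 0.11; limma adjusted p = 3.86e-05). Rora, the gene of the ROR alpha activator, read 1987, 1894 and 2010 against 1142, 966 and 1027. It was separate in all mice and rose 1.87-fold (limma adjusted p = 0.00112). Dbp, an E-box target and D-box activator, read 291, 324 and 240 in knock-in and 1953, 1734 and 1442 in wild-type mice. It fell 5.73-fold (limma adjusted p = 0.000175). Hlf, a further D-box activator, fell 2.27-fold (346, 377 and 294 against 640, 890 and 847; limma adjusted p = 0.00216).

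The members of that list that did not pass included other genes driven through E-boxes. Ciart, which encodes a repressor of the ARNTL and CLOCK pair, read 991, 900 and 1178 in knock-in and 647, 977 and 1024 in wild-type mice. Bhlhe40, a repressor that binds E-boxes (DEC1), read 855, 570 and 1014 against 975, 1149 and 690. Both overlapped between the genotypes (limma adjusted p = 0.442 and 0.605), as Nr1d1 and Nr1d2 did. Tef read 803, 767 and 935 against 1078, 1070 and 966, lower in every knock-in mouse but not called (limma adjusted p = 0.0758). It was called with arrays centred on their medians or without knock-in mouse 5 (lowest adjusted p = 0.0445).

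Enzymes and cofactors that act on the clock proteins had a median size of log2 change of 0.36. It was 1.15 for the loop genes and 0.18 over all tested probe sets. Of 29 listed, 25 were tested, 9 rose, 3 fell and 13 did not pass (median log2 change 0.12). The share called was 48.0%, against 25.9% of all tested probe sets. Sirt1, a deacetylase that acts on PER2 and ARNTL, rose 2.15-fold (878 ± 79.2 against 400 ± 49.0; limma adjusted p = 0.00128). The demethylase gene Kdm5a, a coactivator of the ARNTL and CLOCK pair, rose 1.61-fold and the casein kinase 2 subunit gene Csnk2a2 rose 1.52-fold (limma adjusted p = 0.00418 and 0.00465). The acetyltransferase gene Kat2b fell 1.58-fold (limma adjusted p = 0.00265). The kinases that mark PER proteins for breakdown, Csnk1d and Csnk1e, rose 1.36-fold and 1.47-fold (limma adjusted p = 0.00963 and 0.0114). Hdac3, the deacetylase through which REV-ERB proteins repress, fell 1.71-fold (899 ± 175 against 1537 ± 130; limma adjusted p = 0.00936).

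Genes of liver known to follow the clock went both ways. Of 25 listed, 24 were tested, 8 rose, 6 fell and 10 did not pass (median log2 change 0.12). The share called was 58.3%, against 25.9% of all tested probe sets, and without knock-in mouse 1 the number called was 9. Elovl3, called lower, read 24, 28 and 31 in knock-in mice, under the filter value of 38.4. It passed the filter only through its wild-type values (127, 57 and 156). Wee1, a cell cycle kinase gene driven through E-boxes, read 173, 166 and 168 in knock-in and 986, 776 and 510 in wild-type mice. It fell 4.04-fold, and the knock-in values were nearly equal (limma adjusted p = 0.00114). Ppargc1a, a coactivator that also raises Arntl, rose 4.92-fold (5920 ± 457 against 1217 ± 303; limma adjusted p = 0.000454). Nedd4l, a ubiquitin ligase gene, rose 3.93-fold, and Insig2, which restrains sterol synthesis and whose rhythm depends on REV-ERB alpha, rose 3.65-fold (limma adjusted p = 0.000597 and 0.000428).

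**Figure D4:**
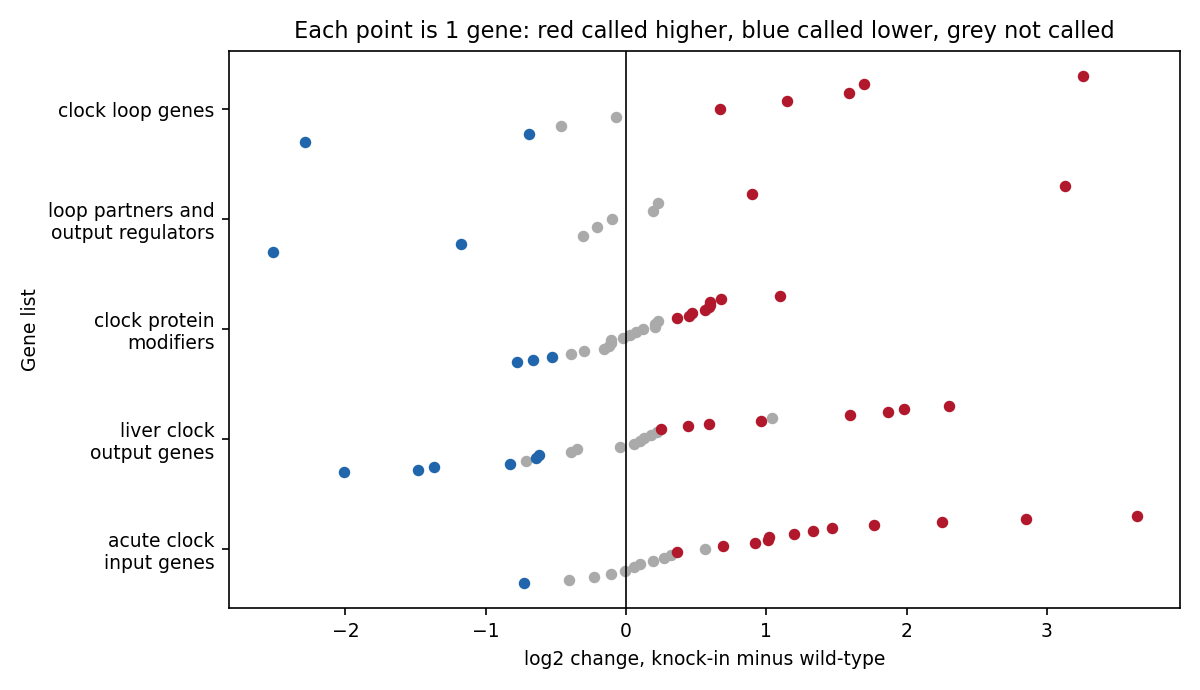
log2 change of each tested gene, knock-in minus wild-type, for the clock loop genes and 4 lists around the loop; each point is 1 gene, red called higher, blue called lower, grey not called, and height within a row only orders the points. Loop genes are spread from -2.29 to 3.26, and 12 of the 13 called genes of the acute input list lie above 0. Over all tested probe sets, 57.7% of the calls were higher. On probe sets with exactly 1 gene, 2637 were called higher and 2646 lower.

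Of 25 listed genes that carry acute signals to the clock, 23 were tested, 12 rose, 1 fell and 10 did not pass (median log2 change 0.56). The share called was 56.5%, against 25.9% of all tested probe sets, and 8 in all were called at a threshold of 0.01. Sgk1, a glucocorticoid-induced kinase gene, read 2613, 1372 and 3516 in knock-in and 251, 343 and 341 in wild-type mice, and rose 7.22-fold (limma adjusted p = 0.00130). Sik1, a cAMP-induced kinase gene that restrains the induction of Per1, rose 4.75-fold (3754 ± 1028 against 781 ± 254; limma adjusted p = 0.00168). The cold-induced RNA-binding protein genes Cirbp and Rbm3 rose 3.40-fold and 2.51-fold (limma adjusted p = 0.00116 and 0.000800), while Nr3c1, the glucocorticoid receptor gene, overlapped between the genotypes (limma adjusted p = 0.594). Fkbp5, another glucocorticoid target, rose 2.29-fold, but Tsc22d3 did not pass (limma adjusted p = 0.822). Whether these signals had a part in the change of Per1 or of other clock genes was not tested.

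The transcripts most like Arntl and Nr1d1 over the 6 arrays were taken by the smallest mean absolute difference between log2 profiles centred on their own mean. For Arntl these were Gadd45b (0.12), Mpzl1 (0.15) and Spring1 (0.15). Gadd45b, a stress-induced growth arrest gene, read 2354, 1123 and 2315 in knock-in and 173, 200 and 242 in wild-type mice. It shared with Arntl the lower value of knock-in mouse 3. For Nr1d1 they were E2f1 (0.07), Lifr (0.08) and Slc23a2 (0.08). Lifr, a cytokine receptor gene, read 1662, 1762 and 2035 against 3203, 2128 and 2756, with knock-in mouse 5 highest and wild-type mouse 4 lowest of their groups, as in Nr1d1. The points are 6 arrays that share 1 genotype contrast. These genes were picked for likeness over the same arrays, so a shared order of mice follows from the choice. Knock-in mouse 3 was also nearest to the wild-type mean for 65.2% of all called probe sets.

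The tissue label was checked against cell type markers, since whole liver was measured and fewer cells of a type cannot be told apart from less RNA per cell. Of 11 tested hepatocyte markers, 2 were called higher (Hnf4a and Tat) and 0 lower, and their summed intensity was 141070 to 152282 in knock-in and 135789 to 139939 in wild-type mice. Markers of Kupffer cells summed to 2021 to 3702 against 3154 to 5325 (2 of 8 lower, 0 higher), those of stellate cells to 1691 to 2383 against 2527 to 2869 (1 of 6 lower, 0 higher). Such sums weigh bright probe sets most. Among stellate cell markers only Lrat was called (333 ± 98.7 against 749 ± 115). Of the other 5, Des (143 against 144) and Pdgfrb (244 against 232) were nearly level. Reln (790 against 1028), Rgs5 (247 against 280) and Col1a1 (197 against 219) had lower knock-in means but were not called. Markers of sinusoidal endothelium summed to 4765 to 6669 against 5758 to 6131 (3 of 7 lower, 1 higher). Lymphocyte markers summed to 350 to 366 against 373 to 436 (1 of 4 lower, 0 higher), neutrophil markers to 386 to 425 against 273 to 312 (3 of 5 higher, 0 lower), and cholangiocyte markers to 368 to 394 against 367 to 391 (0 of 4 called). Retnlg, a neutrophil marker called higher, read 34, 37 and 34 in wild-type mice, under the filter value of 38.4. Aif1, a Kupffer cell marker called lower, read 32, 35 and 33 in knock-in mice, also under that value. Each passed the filter only through the other genotype. Over all tested probe sets 25.9% were called. The shares called among hepatocyte, Kupffer cell, stellate cell, lymphocyte and cholangiocyte markers lay below this. Those of sinusoidal endothelium and of neutrophils lay above it, on 7 and 5 tested markers. The part of these cells in the changes of the clock genes was not tested.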

How the data were processed

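The deposited table held 1 linear intensity per probe set and array in whole numbers. The sources used here do not say how the authors summarised, background-corrected or normalized it. Array medians lay between 97.0 and 104, and no 2 arrays were identical. Gene symbols came from the platform annotation (21789 with 1 symbol, 1621 with several, 12102 not listed). Values entered as log2(value + 16). A filter removed probe sets whose mean log2 value lay under the 25th percentile; the other 26634 entered the test of knock-in minus wild-type by limma 3.58.1 in R 4.3.3 (lmFit, eBayes with trend), with Benjamini-Hochberg adjustment over all of them and a threshold of 0.05. List genes were represented by their brightest probe set. Named genes are the members, up to 4 genes per list by smallest p, those a role called for (Csnk1d, Csnk1e, Hdac3, Ciart, Bhlhe40, Tef, Nr3c1, Fkbp5 and Tsc22d3), and the 3 transcripts most like Arntl and Nr1d1. Elovl3, Retnlg and Aif1 are named for their low readings in 1 genotype. The other markers named are all 6 stellate cell markers and the 2 called hepatocyte markers. The members and lists were chosen with earlier results of these data known. The lists share 3 genes (Usp2, Nampt and Tsc22d3). Each array is a separate mouse by its label, and 3 arrays per genotype limit the precision. Promoters came from RefSeq (GRCm38.p6). The fit was also run on simulated arrays with equal spread in both genotypes and few changed probe sets, unlike these data. The outcome of that run is not reported here. Figures were drawn with matplotlib 3.10.9.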

Additional observations from a re-analysis of the deposited data

How the results depend on the processing

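The alternatives were pseudocounts of 1 and 64, quantile normalization, centred arrays, no filter or one at the 50th percentile, no trend, a robust prior, array weights, probe sets with exactly 1 gene, a threshold of 0.01, a change of at least 1.5-fold, and each mouse left out. Over these 18 alternatives Arntl, Clock, Cry1, Cry2, Per1 and Per3 kept their direction and their call, with log2 changes of 2.72 to 3.55, 0.57 to 0.76, 1.46 to 1.80, 1.48 to 1.75, 0.98 to 1.35 and -2.44 to -2.02. Per2 lost its call in 7 (-0.84 to -0.49, adjusted p = 0.0260 to 0.118), Nr1d1 gained one in 1 (-0.59 to -0.30, adjusted p = 0.0480 to 0.290), Nr1d2 was called in 0 (-0.13 to -0.01), and none of the 9 changed sign. The members called lower were 1 with no filter and at 0.01. At 0.01, 7 output genes, 8 input genes and 1831 higher and 1413 lower probe sets were called. With at least 1.5-fold, 7 modifiers and 2077 higher and 1774 lower probe sets were called. On probe sets with exactly 1 gene, where fewer were tested, 2637 higher and 2646 lower were called. With arrays centred on their medians, 3119 higher and 3424 lower were called. The excess of higher calls over all probe sets therefore depended on the processing. With a mouse left out, members called lower were 1 to 2, output genes 9 to 16, higher probe sets 2422 to 4271 and lower 1814 to 3454. No paired analysis was possible because the genotypes share no replicate number. Arrays carry no read depth, and detection over background was not analysed here.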
